A study of Homo sapiens with 18 samples.

Results

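The 2 siRNAs against SNRPD3 were compared directly through the splicing they left behind in SHEP.tet21n cells, using the 6 libraries made with SNRPD3 siRNA #1 and the 6 made with SNRPD3 siRNA #2, 12 of the 18 libraries of the series. Members were chosen by their library labels alone, and no measured value entered the choice. SHEP.tet21n is a human neuroblastoma line that carries a MYCN cDNA which doxycycline (Dox) switches off. Cells given DMSO vehicle expressed MYCN (MYCN+), and cells given 2 µg/mL Dox had MYCN repressed (MYCN-). Each siRNA was used in both MYCN states with 3 replicate libraries per group, and the other 6 libraries received a non-targeting siRNA (siControl) in the same 2 states. All 18 libraries share the engineered transgene and the single cell line, so a line effect cannot be told apart from a general one. The study describes its replicates as independent biological ones, the labels do not say how they were cultured, and the p-values measure the spread between these libraries.

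SNRPD3 encodes SmD3, a member of the Sm protein ring that is assembled around the uridine-rich small nuclear RNAs to form the core of the spliceosome's snRNPs. These particles recognise the donor (5′) and acceptor (3′) splice sites of each intron. An siRNA guides Argonaute to a matching mRNA, but its seed can also bind unrelated transcripts, and for that reason a knockdown is commonly repeated with a second siRNA of different sequence. Shifts that follow the loss of the target should then be shared by both siRNAs if they deplete it equally. Shifts that belong to 1 sequence should differ between them. Unequal depletion of the target could also make the siRNAs differ, and it was not tested.

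Splicing was measured as the percent spliced in (PSI), the share of the reads crossing a cluster of overlapping introns that removed a given intron. PSI compares introns within a cluster and carries no information on expression, so neither the depletion of SNRPD3 nor the level of MYCN nor the identity of the cells could be checked with it. Introns of SNRPD3 and MYCN were not analysed here. No read counts accompany the PSI values, so depth is unknown and no interval can be set on a single PSI. Of the 233650 introns, 152554 in 14208 genes had a mean PSI between 1% and 99% over the 12 libraries and were tested. In 20242 of them (13.3%) at least 1 PSI value was exactly repeated in another library, which marks values that need not be separate measurements, and calls on such introns are given apart. No PSI equals 0 or 100%, so whether a library with a PSI near 0 had any read across the intron cannot be seen. Libraries of 1 group correlated at 0.846 to 0.870 over the tested introns on the log2 odds scale, and libraries of the 2 siRNAs within 1 MYCN state at 0.847 to 0.875. Libraries of 1 siRNA in different MYCN states correlated at 0.846 to 0.858. All these ranges overlap, so the correlations set neither siRNAs nor MYCN states apart and cannot tell whether the siRNAs differed.

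Both siRNAs raised exon skipping over siControl, and no difference between them was resolved after adjustment. For each of 18568 annotated exons with an intron that skips it and an intron on either side, skipping was expressed as s/(s + f), where s is the PSI of the intron that leaves the exon out and f the average PSI of the introns beside it. Averaged over sets, this skipping share was 38.2% ± 0.443 in siControl libraries, 40.03% ± 1.28 in those of siRNA #1 and 39.6% ± 0.900 in those of siRNA #2 (SD, n = 6 each). With MYCN expressed, the 3 libraries of siRNA #1 had 40.1%, 39.9% and 42.5%, the 3 of siRNA #2 had 39.9%, 39.3% and 41.2%, and the 3 of siControl had 38.0%, 38.4% and 39.0%. With MYCN repressed, the values were 39.5%, 38.9% and 39.3% for siRNA #1, 38.9%, 38.8% and 39.3% for siRNA #2, and 38.0%, 38.2% and 37.7% for siControl. Every knockdown library lay above every siControl library of its own MYCN state, whichever siRNA it had received, while the libraries of the 2 siRNAs overlapped in both states.

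Over both states the share exceeded siControl by 1.83 points with siRNA #1 and by 1.37 points with siRNA #2. Each of these reached 0.005, the smallest p that an exact permutation test of labels within MYCN state can give over its 400 arrangements (adjusted p = 0.01 over 4 tests, chosen after these values were seen). Both use the same siControl libraries and are therefore not independent of each other. The direct difference, siRNA #2 minus siRNA #1, was -0.46 points, with a 95% interval of -1.66 to 0.58 points from inverting the exact permutation test (two-sided exact p = 0.405, adjusted p = 0.6 over 4 measures). Without MYCN+ siRNA #1 replicate 3, which had the highest share of the 18, the difference was 0.032 points. That comparison kept MYCN+ siRNA #2 replicate 3, the highest library of siRNA #2 at 41.2%. Within MYCN- cells, which include neither library, the difference was -0.238 points, against -0.689 points within MYCN+ cells. When siRNA labels were exchanged only within pairs of 1 replicate number and MYCN state, siRNA #2 was lower in 6 of 6 pairs. The exact permutation p was then 0.03125, the smallest possible over 64 arrangements, with an adjusted p of 0.125. By exon set, the share was lower with siRNA #2 in 10606 and higher in 7962.

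**Figure D1:**
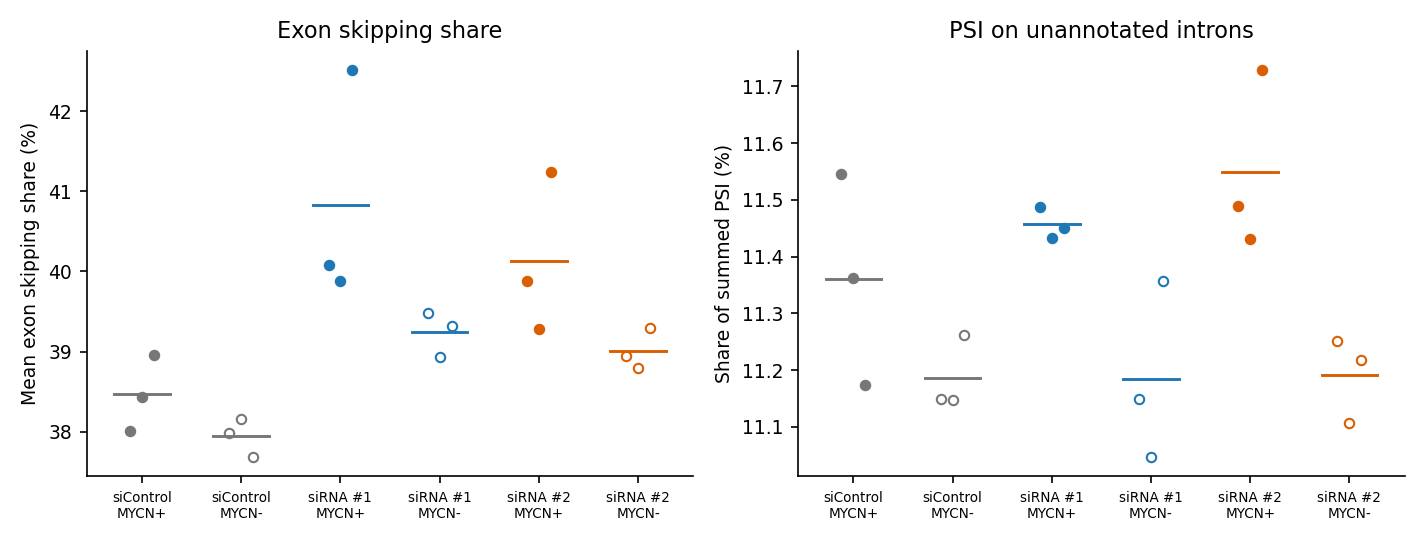
Mean exon skipping share (left, in %) and share of summed PSI on introns absent from the annotation (right, in %) in each of the 18 libraries, by siRNA and MYCN state. Points are libraries, filled for MYCN+ and open for MYCN-, lines are means of 3, and the axes do not start at 0. The knockdown libraries of both siRNAs lie above siControl on the left within each MYCN state, while on the right all 6 groups overlap with at least 1 other.

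Against siControl, more exon sets had a higher skipping share than a lower one with either siRNA in either MYCN state. The filter of these sets left siControl out. With MYCN expressed, 71.5% of the 18568 sets had a higher mean skipping share with siRNA #1 than with siControl and 67.1% with siRNA #2. With MYCN repressed these percentages were 64.0% and 61.3%. The median set rose by 1.32 and 0.945 points with MYCN expressed and by 0.599 and 0.469 points with MYCN repressed, for siRNA #1 and siRNA #2. When each set was tested alone for a difference between the siRNAs, 1 of 18568 (0.00539%) was called, in SLC12A4 (limma, Benjamini-Hochberg adjusted p = 0.00108). An unadjusted p under 0.05 was reached by 1168 (6.29%).

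The other measures taken once per library did not separate the siRNAs. Introns absent from the annotation held 11.3% ± 0.180 of the summed PSI with siRNA #1, 11.4% ± 0.225 with siRNA #2 and 11.3% ± 0.157 with siControl (SD, n = 6 each). The siRNA difference in this measure was 0.050 points (95% interval -0.096 to 0.204, exact permutation p = 0.47, adjusted p = 0.6). The mean absolute difference of PSI from the siControl mean of the same MYCN state, a measure of how far a library departed from control, was 5.59 ± 0.416 points with siRNA #1 and 5.42 ± 0.193 points with siRNA #2 (SD, n = 6 each). Its siRNA difference of -0.17 points (95% interval -0.54 to 0.15) gave an exact permutation p of 0.355 and an adjusted p of 0.6. The mean absolute difference also holds the spread between single libraries, and no siControl value was computed to set beside it. Exactly repeated values, the technical measure, made up 5.14% ± 0.925 and 4.94% ± 0.714 of the tested introns of a library (SD, n = 6 each; exact permutation p = 0.6, adjusted p = 0.6). A dependence of the 4 siRNA differences on the MYCN state was not resolved with 3 libraries per group (exact permutation p from 0.39 to 0.74, adjusted p = 0.74 for each).

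Effects on single introns can be compared between the siRNAs without shared libraries by taking 1 siRNA against siControl in MYCN+ cells and the other against siControl in MYCN- cells. Over the 18568 exon sets, the log2 odds of the skipping share changed in the same direction in 59.1% of sets for siRNA #1 in MYCN+ against siRNA #2 in MYCN- cells, and in 59.5% for the reverse pair. For the same siRNA in both states the figures were 62.4% (siRNA #1) and 60.2% (siRNA #2). Because most sets rose with either siRNA in either state, unrelated changes would also share a direction more often than not. The Pearson correlations were 0.0733 and 0.0535 between different siRNAs and 0.0995 and 0.0804 within 1 siRNA. Over all 152554 introns they were 0.0229 and 0.0316 between siRNAs, and 0.0304 and 0.0354 within 1 siRNA. Over the 132312 introns with 12 different values they were 0.0407 and 0.0379 between siRNAs, and 0.0572 and 0.0553 within 1 siRNA. All were below 0.1, and for exon sets and for introns with different values both correlations within 1 siRNA were above both between siRNAs. The points of each correlation are features of the same 12 libraries per pair and are not independent replicates, so no test was made.

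Intron by intron, the siRNAs could hardly be told apart. The test (limma on log2 odds, with the MYCN state as a term) called 9 of 152554 introns at an adjusted p under 0.05, or 0.0059%. These 9 introns lie in 8 genes, 5 were higher and 4 lower with siRNA #2, and 6 of them had 12 different values in the 12 libraries. An unadjusted p under 0.05 was reached by 7784 introns (5.10%), against 11603 (7.61%) for siRNA #1 and 10510 (6.89%) for siRNA #2 in the comparisons with siControl, which use all 18 libraries. In a fit of all 18 libraries the direct comparison had 5.51% under 0.05 and 2 introns called. The calls depend on the scale. When PSI itself was fitted instead of its log2 odds, limma called 0 introns, with 6815 (4.47%) at an unadjusted p under 0.05. Leaving out 1 library at a time gave 13 to 29 called introns, and without MYCN- siRNA #2 replicate 3 there were 29. The median absolute PSI difference between the siRNAs was 1.18 points, 84.6% of introns differed by under 5 points and 6.98% by 10 points or more.

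The width of the intervals limits what the low number of calls can say. On the PSI scale the 95% interval of the difference extended a median of 3.78 points to either side. It lay wholly within 5 points of 0 for 48.6% of introns, within 10 points for 71.7% and within 20 points for 85.4%. For the remaining introns the interval reached beyond 20 points on at least 1 side.

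**Figure D2:**
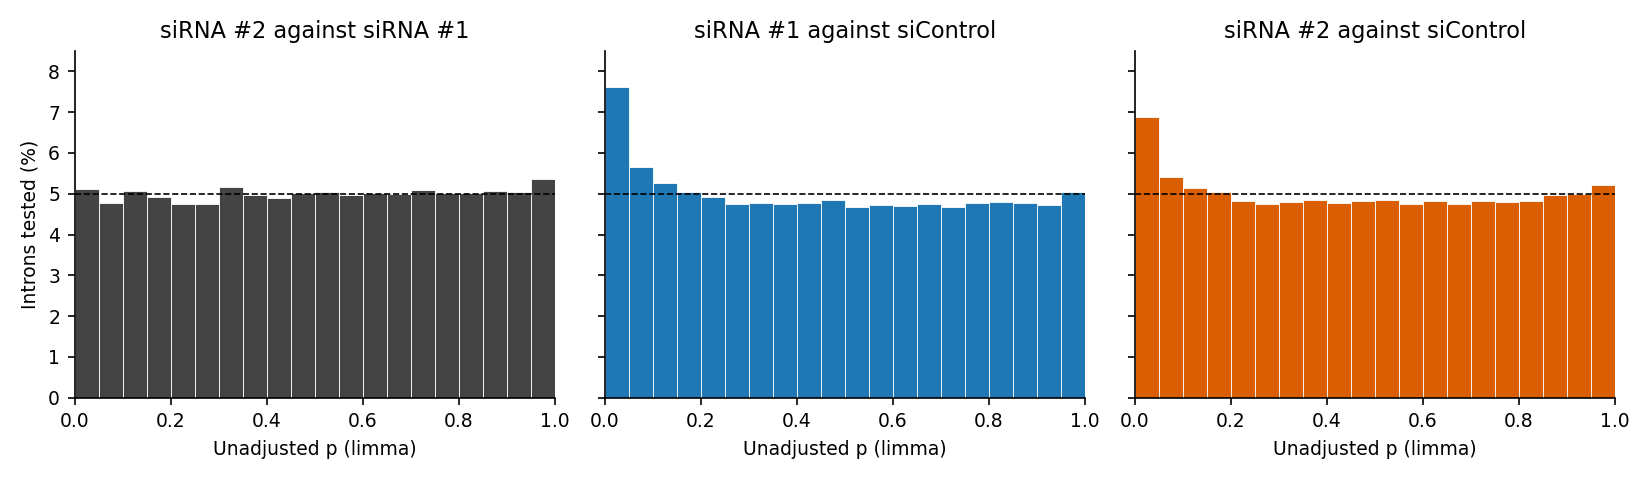
Unadjusted limma p-values of the 152554 tested introns in bins of 0.05, as a percentage of introns, for siRNA #2 against siRNA #1 (left), siRNA #1 against siControl (middle) and siRNA #2 against siControl (right). The dashed line marks 5%, the height of a flat distribution. The first bin holds 5.10% on the left, 7.61% in the middle and 6.89% on the right.

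The called introns were in part rare splicing choices, and 5 of 9 had a mean PSI under 5%, against 32.0% of all tested introns. Of the 5 called introns with 12 different values that are described here, 2 were rare introns near 0 with siRNA #1 and higher with siRNA #2 (SLC12A4 and TRAF2). A further 2 were rare introns near 0 with siRNA #2 and higher with siRNA #1 (ZNF773 and CAB39L). The last was a major intron that was lower with siRNA #2 than with siRNA #1 (HECW1). Of all 9 called introns, 5 differed by under 5 points and 4 by 10 points or more. With the siRNA where they were near 0, the introns of SLC12A4, TRAF2, ZNF773 and CAB39L lay below the 1% of the filter. They passed it only through the other siRNA, so this contrast was partly set by the filter. The called introns had a median PSI of 1.59%, against 17.6% for all tested introns, and 5 of 9 (55.6%) matched an annotated intron, against 67.7%. Lack of overlap of 6 libraries against 6 was a condition for naming the 5 introns described. Over all 152554 tested introns, 386 (0.253%) met that condition.

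Their splice sites are shown because the usage of these introns, relative to others of the same cluster, separated the 2 siRNAs. They were read from hg38, 5′ to 3′ on the gene's strand, with the last 3 bases of the exon and the first 9 of the intron for donors, and the last 20 of the intron and the first 3 of the exon for acceptors. Capitals mark the 2 intron bases next to the exon.
SLC12A4 donor of exon 17 (chr16:67946928-67946939, -): cagGTacttgct
SLC12A4 acceptor of the skipped exon 18 (chr16:67946631-67946653, -): cctgggtgtgttccccacAGacc
SLC12A4 acceptor of exon 19 (chr16:67946338-67946360, -): gccgtgctcctcctccccAGaca
TRAF2 annotated acceptor of exon 2 (chr9:136898693-136898715, +): tgctgtgtgttcttccttAGggc
TRAF2 acceptor within intron 1 (chr9:136898503-136898525, +): agcctgagtttccatactAGcgg
HECW1 donor of exon 6 (chr7:43360978-43360989, +): cctGTaagtctc
HECW1 annotated acceptor of exon 7 (chr7:43396794-43396816, +): cattttccttctttttacAGatt
HECW1 acceptor within intron 6 (chr7:43365087-43365109, +): cctcctcttcccactctcAGgca
ZNF773 donor within exon 4 (chr19:57506591-57506602, +): cagGTgactcac
CAB39L donor within intron 3 (chr13:49393004-49393015, -): ttaGTaagtatg
CAB39L donor of exon 3 (chr13:49433309-49433320, -): aagGTaagctag
The 8 called introns described here begin with GT and end with AG, including the 3 with a site absent from the annotation.

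In SLC12A4, which encodes the potassium-chloride cotransporter KCC1, an intron that leaves out exon 18 of 24 (chr16:67946341-67946936, minus strand) was higher with siRNA #2 than with siRNA #1. Its PSI ran from 0.0340% over a median of 0.0430% to 0.0634% in the 6 libraries of siRNA #1, and from 1.37% over 3.05% to 3.58% in those of siRNA #2. The groups did not overlap, and 2 of the 6 siControl libraries (2.59% and 1.68%) lay among those of siRNA #2 while the other 4 lay at or below 0.0466%. The difference was 2.81 points (95% interval 1.75 to 3.87, adjusted p = 0.00536, limma), or 1.89 ± 0.157 log2 odds (SE). The skipped exon has 196 bases, all coding and not a multiple of 3, and the annotation gives this intron to 1 transcript, classed as a target of nonsense-mediated decay.

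In TRAF2, an adaptor of tumour necrosis factor receptor signalling, siRNA #2 used an unannotated acceptor in intron 1, 190 bases before exon 2 of 11 (chr9:136890543-136898522). PSI ran from 0.0219% over 0.0364% to 0.0542% with siRNA #1 and from 1.54% over 2.04% to 3.24% with siRNA #2. The groups did not overlap, and all 6 siControl libraries lay between 0.0296% and 0.0522%, in the range of siRNA #1. The difference between the siRNAs was 2.12 points (95% interval 1.18 to 3.06, adjusted p = 0.00302, limma). It was also called against siControl for siRNA #2 (2.11 points, adjusted p = 8.22e-06), and for siRNA #1 that difference was -0.00561 points (adjusted p = 1).

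In HECW1, a HECT-type ubiquitin ligase, the annotated intron 6 (chr7:43360981-43396813) was lower with siRNA #2 than with siRNA #1. PSI ran from 99.7% over 99.8% to 99.9% with siRNA #1 and from 73.1% over 82.9% to 94.0% with siRNA #2, without overlap. The difference of -16.4 points (95% interval -22.5 to -10.4) had an adjusted p of 0.00302 (limma). The 6 siControl libraries spanned both groups, from 85.6% to 99.8%. Of the competing introns of the cluster, the one with the largest gain on average used an acceptor within intron 6, and its mean PSI was 0.105% and 0.066% with siRNA #1 and 13.5% and 4.02% with siRNA #2 in MYCN+ and MYCN- cells.

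A pair of rare introns was lower with siRNA #2. In ZNF773, a zinc finger protein, an intron with an unannotated donor inside the coding part of exon 4 (chr19:57506594-57513021) had a PSI of 1.90% over 3.16% to 4.34% with siRNA #1 and of 0.0506% over 0.0538% to 0.0814% with siRNA #2, a difference of -3.07 points (95% interval -4.39 to -1.76, adjusted p = 0.0154, limma). Its adjusted p was 0.0579 without MYCN+ siRNA #2 replicate 1, and its siControl libraries ran from 0.0625% to 12.3%. In CAB39L, a relative of the scaffold protein MO25 of the LKB1 kinase complex, an annotated intron from a donor in intron 3 to exon 4 in the 5′ UTR (chr13:49382942-49393012, minus strand) had a PSI of 1.98% over 2.34% to 4.17% with siRNA #1 and of 0.0227% over 0.0365% to 0.0589% with siRNA #2. That difference was -2.66 points (95% interval -3.75 to -1.57, adjusted p = 0.00331, limma), and siControl ran from 0.0324% to 4.37%. Neither intron's groups overlapped.

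**Figure D3:**
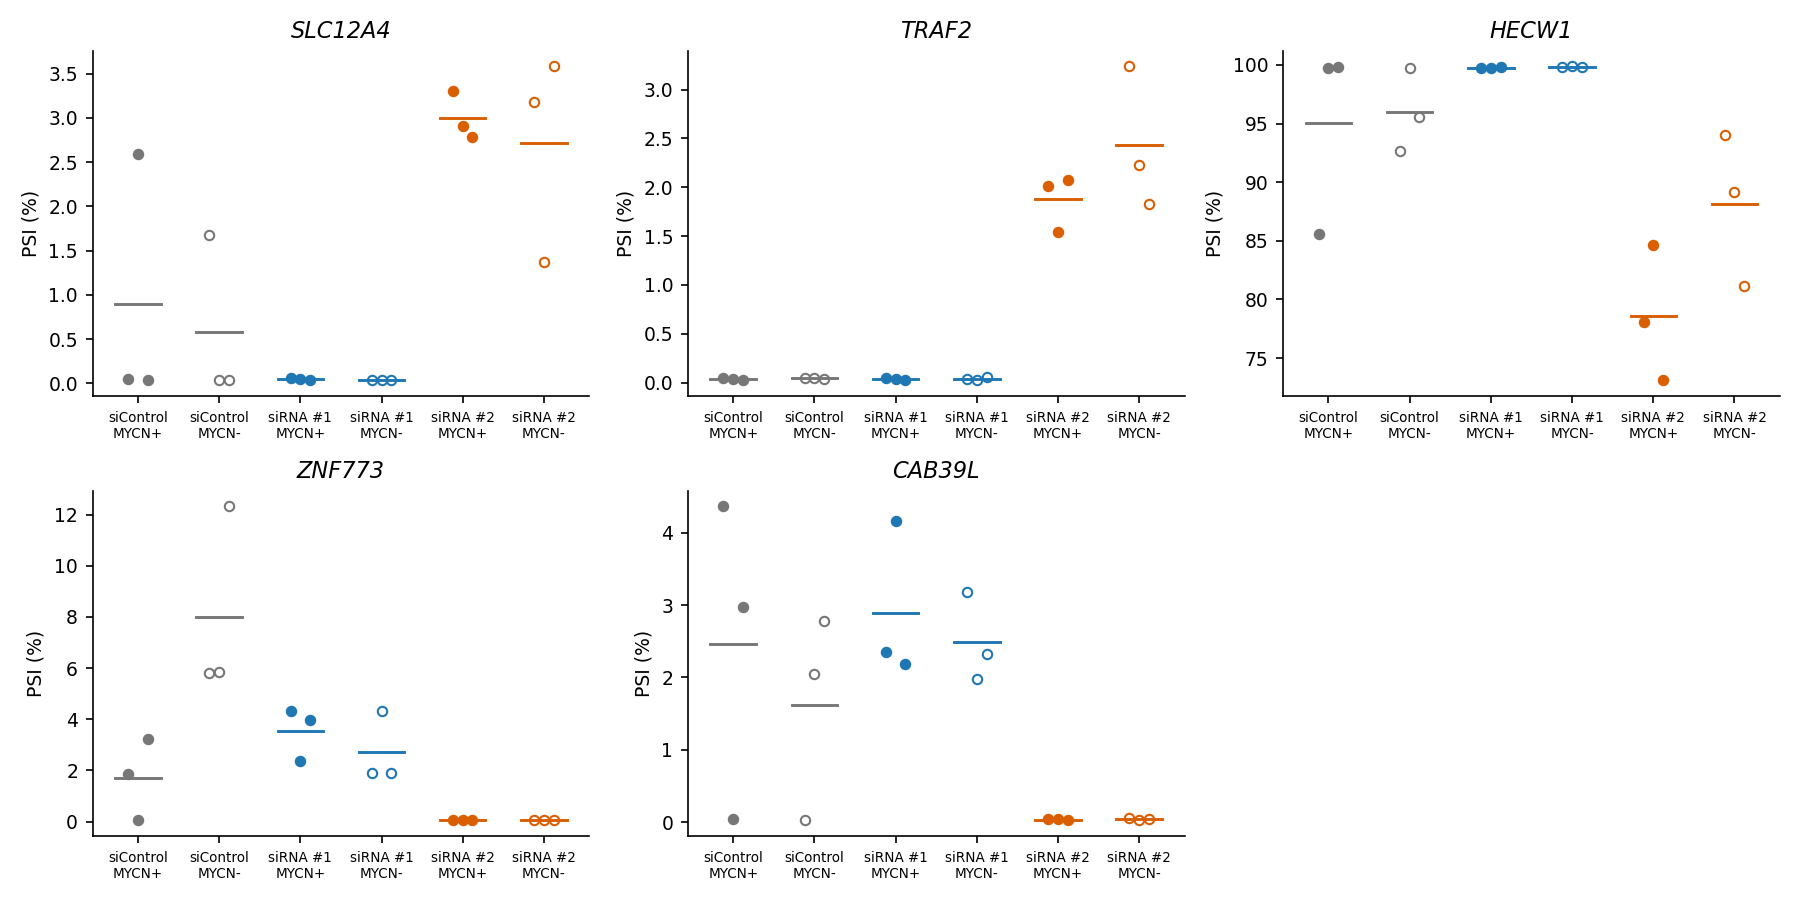
PSI (in %) of 5 called introns with 12 different values, in each of the 18 libraries by siRNA and MYCN state. Points are libraries, filled for MYCN+ and open for MYCN-, and lines are means of 3. In each panel the 6 libraries of siRNA #1 and the 6 of siRNA #2 do not overlap, which was a condition for naming these introns. The siControl libraries reach into the range of at least 1 of the 2 siRNAs.

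A further 3 called introns had repeated values. An intron of CD101, an immunoglobulin-superfamily surface protein of immune cells, with an unannotated acceptor in intron 6 (chr1:117018561-117019153) had 0.351% ± 0.0687 with siRNA #1 and 21.2% ± 7.84 with siRNA #2 (SD, n = 6 each, 11 different values; adjusted p = 0.00119, limma), with siControl from 0.288% to 14.3%. With siRNA #1 the CD101 intron lay below the 1% of the filter, which it passed only through siRNA #2. A pair of introns of the non-coding gene ENSG00000283839 that share an acceptor (chr2:184596377-184598087 and chr2:184596377-184598267, minus strand) make up their cluster, so that 1 mirrors the other. The shorter one had 1.15% ± 0.343 with siRNA #1 and 25.8% ± 7.66 with siRNA #2 (SD, n = 6 each), with 8 different values among the 12 libraries (adjusted p = 0.000153, limma). The siControl libraries had 0.513%, 1.37% and 0.685% in MYCN+ and 0.876%, 74.2% and 1.37% in MYCN- cells, so 1 of the 6 lay above all libraries of both siRNAs and the other 5 lay at or below 1.37%, the highest value with siRNA #1.

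Further differences between the siRNAs did not pass the adjustment over all introns. The introns with the smallest p after the called ones, without overlap and with 12 different values, lay in SCLT1, ARHGAP26, BPTF, AP1S2, BEND7 and ENSG00000291055 (adjusted p from 0.117 to 0.208, limma). Those of SCLT1, BPTF and AP1S2 differed by over 10 points. In SCLT1 and BPTF the intron described shares most of its cluster with 1 other acceptor, while in AP1S2 each competing intron had a group mean of at most 8.33%. Their acceptors are shown in the same way because these differences were the widest in points of these 6.
BPTF acceptor of the intron described (chr17:67981416-67981438, +): tattctttcttttcttacAGatt
BPTF acceptor of exon 28 (chr17:67982232-67982254, +): cttttttctatattctgtAGgtc
SCLT1 acceptor of the intron described (chr4:129040210-129040232, -): ttggtttaattgtgtttcAGgca
SCLT1 acceptor of exon 5 (chr4:129039094-129039116, -): accatattttattctttcAGaaa
AP1S2 acceptor of exon 6 (chrX:15827370-15827392, -): ctcacattttccctccacAGgaa

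In BPTF, the largest subunit of the chromatin remodeller NURF, the intron described (chr17:67975959-67981435) ends 816 bases before the last exon of the canonical transcript. Its PSI was 29.2%, 26.0% and 26.1% in MYCN+ and 27.2%, 23.0% and 22.1% in MYCN- cells with siRNA #1, and 42.3%, 41.2% and 37.3% in MYCN+ and 40.5%, 34.9% and 36.1% in MYCN- cells with siRNA #2. The libraries of the 2 siRNAs did not overlap, and the 6 siControl libraries lay mostly between them, from 28.5% to 35.8%. The siRNAs differed by 13.1 points (95% interval 10.1 to 16.2, adjusted p = 0.187, limma), and the difference was 13.2 points in MYCN+ and 13.1 points in MYCN- cells. Against siControl, siRNA #1 was 7.76 points lower and siRNA #2 5.35 points higher (adjusted p = 0.179 and 0.468, limma). In the fit of all 18 libraries the adjusted p of the siRNA difference was 0.0332, and over the other alternatives it reached 0.555.

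In SCLT1, a centriolar distal appendage protein needed for cilia, an annotated acceptor in intron 4 (chr4:129040213-129043394, minus strand) had a PSI of 19.6% ± 2.47 with siRNA #1 and 34.9% ± 4.62 with siRNA #2 (SD, n = 6 each), against 31.5% ± 8.10 with siControl. The lowest, median and highest values were 16.3%, 19.8% and 22.7% for siRNA #1 and 27.8%, 35.8% and 39.4% for siRNA #2. The difference was 15.3 points (95% interval 11.7 to 18.98, adjusted p = 0.117, limma), and without MYCN- siRNA #1 replicate 2 or MYCN- siRNA #2 replicate 3 its adjusted p was 0.0185 or 0.0396. In siControl libraries PSI was higher in MYCN+ cells, 34.0% to 40.6%, than in MYCN- cells, 20.5% to 28.2%, without overlap.

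In AP1S2, the sigma subunit of the AP-1 clathrin adaptor, the intron described joins exon 4 to exon 6 of the canonical transcript (chrX:15827373-15845378, minus strand). Its PSI ran from 62.9% over 75.4% to 77.7% with siRNA #1 and from 84.0% over 87.0% to 89.4% with siRNA #2. Between these exons the canonical transcript has a coding exon of 9 bases, exon 5 of 6. No pair of introns in the cluster encloses that exon, so its skipping was not measured. The difference was 13.7 points (95% interval 9.03 to 18.4, adjusted p = 0.204, limma). Here siRNA #1 was the one that stood away from siControl, by -10.7 points (adjusted p = 0.161, limma), against 3.07 points for siRNA #2 (adjusted p = 0.785). The other 3 introns of this group differed by 3.21 points or less.

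**Figure D4:**
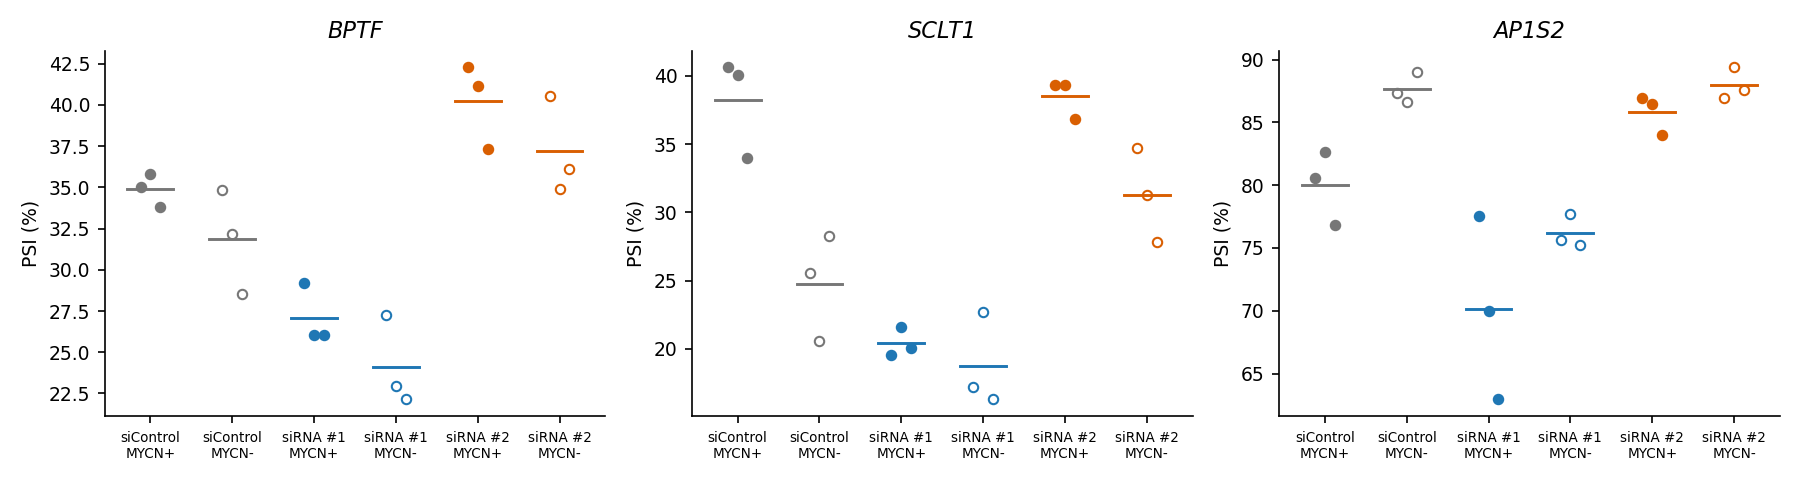
PSI (in %) of the introns of BPTF, SCLT1 and AP1S2 in each of the 18 libraries by siRNA and MYCN state, with points for libraries (filled MYCN+, open MYCN-), lines for means of 3, and axes that do not start at 0. The libraries of the 2 siRNAs do not overlap in any of the panels, which was a condition for naming these introns. None of the 3 differences passed the adjustment over all introns (limma, adjusted p from 0.117 to 0.204).

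Within a single MYCN state, more introns were called, and most were not shared by the other state. With MYCN expressed, 66 of 152554 introns (0.0433%) in 50 genes differed between the siRNAs at an adjusted p under 0.05 (limma, 3 libraries against 3, spread from all 4 groups), 34 higher and 32 lower with siRNA #2. With MYCN repressed, 52 (0.0341%) in 43 genes were called, 26 in each direction. Values were all different in 47 of the 66 and in 37 of the 52. Mean PSI was under 5% in 48.5% of the 66 and in 65.4% of the 52, against 32.0% of all tested introns. Such rare introns can pass the filter only through the group that used them, and their contrast is then partly set by it. The states share no library, and of the 66 introns 35 had the same direction with MYCN repressed, where 6 were also called. Of the 52, 25 had the same direction with MYCN expressed. Over all tested introns, 52.4% had the same direction in both states, and the log2 odds differences correlated at 0.0111.

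Called in both states with 1 direction were the introns of TRAF2, HECW1, CAB39L, CD101 and the pair of ENSG00000283839 already described. A further 3 introns were called in both states in opposite directions and were picked out after their values were seen. They are an intron of SFMBT1, a Polycomb-associated MBT domain protein, 4.51 points higher with siRNA #2 in MYCN+ and 2.29 points lower in MYCN- cells, and a mirrored pair of TMEM198, which differed by 14.8 and 9.34 points and had repeated values.

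**Figure D5:**
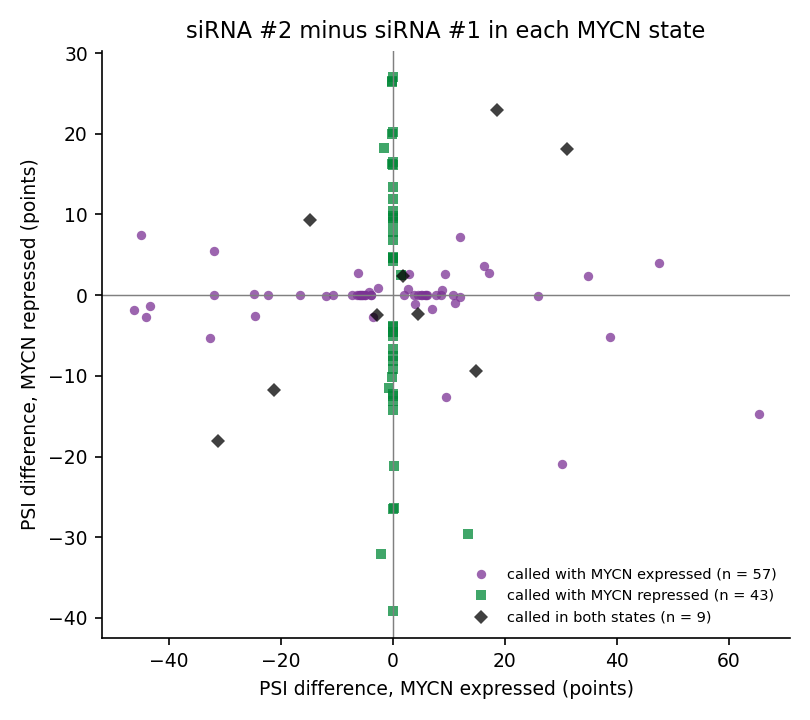
Difference of mean PSI, siRNA #2 minus siRNA #1 in points, with MYCN expressed (horizontal) and repressed (vertical), for introns called in 57 cases with MYCN expressed only, in 43 with MYCN repressed only and in 9 in both. Each point is an intron. Most points lie along 1 axis, near 0 in the other state, and 6 of the 9 called in both lie in quadrants of equal direction.

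The intron with the largest difference in MYCN+ cells among those in a named gene, without overlap and with different values in the libraries compared, was in SNHG32, a host gene of small nucleolar RNAs. Its intron chr6:31835452-31836298 had a PSI of 54.7%, 43.6% and 41.5% with siRNA #1 and of 0.361%, 0.434% and 0.282% with siRNA #2 (adjusted p = 0.000177, limma). With MYCN repressed it was 59.4% ± 4.97 and 57.5% ± 9.44 (SD, n = 3 each), and with MYCN expressed siControl itself ranged from 0.290% to 53.9%. In CACNA1C, the pore subunit of an L-type calcium channel, intron 31 (chr12:2648508-2651639) had 44.8% ± 23.0 with siRNA #1 and 0.845% ± 0.301 with siRNA #2 in MYCN+ cells (SD, n = 3 each, adjusted p = 0.0486, limma). In C10orf67, an unannotated acceptor in intron 4 (chr10:23316913-23320740, minus strand) had 99.6% ± 0.0631 and 67.0% ± 21.2 (SD, n = 3 each, adjusted p = 0.0251, limma). In MYCN- cells its means were 76.8% with siRNA #1 and 71.6% with siRNA #2. The siControl means were 78.5% in MYCN+ and 82.1% in MYCN- cells.

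With MYCN repressed, the largest such differences were in SEPTIN7-DT, SLC29A2 and ENSG00000237529. In SEPTIN7-DT, a non-coding transcript divergent from SEPTIN7, an intron without an annotated site (chr7:35750622-35752609, minus strand) had 47.0%, 49.1% and 22.5% with siRNA #1, while the other 15 libraries lay between 0.251% and 0.469% (adjusted p = 0.000864, limma). It passed the 1% filter only through siRNA #1 in MYCN- cells, so this contrast was partly set by the filter. In SLC29A2, a nucleoside transporter, intron 4 (chr11:66368672-66369059, minus strand) had 32.4% ± 7.35 with siRNA #1 and 0.428% ± 0.235 with siRNA #2 (SD, n = 3 each, adjusted p = 0.00596, limma). In ENSG00000237529 an annotated intron (chr9:83273957-83276447) had 30.3% ± 17.3 and 0.747% ± 0.119 (SD, n = 3 each, adjusted p = 0.0202, limma), but over the 12 libraries it had 8 different values.

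The siRNA difference itself was tested for dependence on MYCN. It differed between the states in 64 introns (0.042%) of 51 genes, 32 in each direction (limma interaction, adjusted p under 0.05), and 43 of the 64 had 12 different values. SNHG32 (-5.91 ± 0.432 log2 odds, SE, adjusted p = 0.00155) and SEPTIN7-DT (5.51 ± 0.536, SE, adjusted p = 0.0105) were among them. The third named by the same rule was SPIRE2, an actin nucleator, in which an unannotated donor in intron 1 (chr16:89844746-89845321) had 48.4%, 32.0% and 15.7% with siRNA #1 in MYCN+ cells and at most 0.353% in the other 9 knockdown libraries (-5.21 ± 0.636 log2 odds, SE, adjusted p = 0.0417). The introns of SPIRE2 and SEPTIN7-DT each passed the 1% filter only through 1 group, so these contrasts were partly set by the filter.

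Against siControl, siRNA #1 called 0 of 152554 introns (0%) and siRNA #2 called 3 (0.00197%) in limma, with 11603 and 10510 introns at an unadjusted p under 0.05. The 3 are the TRAF2 intron, an exon-skipping intron of SKP2 and an intron of PLCG1, and SKP2 and PLCG1 were picked out after their values were seen. In SKP2, the substrate receptor of an SCF ubiquitin ligase of the cell cycle, the intron chr5:36177293-36183839 had a PSI of 28.6% ± 3.93 with siControl, 40.01% ± 6.71 with siRNA #1 and 45.3% ± 2.63 with siRNA #2 (SD, n = 6 each). The adjusted p against siControl was 0.161 for siRNA #1 and 0.0483 for siRNA #2, and that of the difference between the siRNAs was 0.975 (limma). In PLCG1, a phospholipase of receptor signalling, an intron with 1 annotated site (chr20:41167005-41167851) had 0.0728% ± 0.154 with siControl, 0.967% ± 0.508 with siRNA #1 and 1.29% ± 0.431 with siRNA #2 (SD, n = 6 each), with an adjusted p of 0.131 and 0.0426 against siControl and of 0.998 between the siRNAs (limma). In SKP2 and PLCG1 both siRNAs thus lay on the same side of siControl, whereas in TRAF2 the siControl libraries lay in the range of siRNA #1. The introns compared with siControl were filtered on the 12 knockdown libraries alone. With siControl the mean PSI of the PLCG1 and TRAF2 introns lay below the 1% of the filter. They passed it only through knockdown libraries, so their contrast with siControl was partly set by the filter.

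Gene groups that could respond to losing a core spliceosome protein, or to an siRNA as such, held no intron called between the siRNAs over both MYCN states (limma), which at the 0.0059% called over all introns says nothing particular about them. Among 214 introns of 38 core snRNP genes, 16 (7.48%) had an unadjusted p under 0.05, with the smallest in RNPC3, a protein of the minor spliceosome, at 99.4% ± 0.581 and 96.6% ± 1.35 for siRNA #1 and #2. For snRNP assembly it was 9 of 167 introns (5.39%), for SR proteins and TRA2 10 of 103 (9.71%) and for hnRNP proteins 3 of 221 (1.36%). Nonsense-mediated decay genes had 15 of 313 (4.79%). All tested introns had 5.10%, and the median absolute PSI difference in these 5 groups was 0.518 to 0.847 points, against 1.18 points.

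The same holds for groups that bear on the siRNA itself. Among genes of the small RNA pathway, 12 of 375 introns (3.2%) had an unadjusted p under 0.05. In the group for double-stranded RNA sensing and the interferon response, which foreign RNA duplexes can set off, it was 12 of 263 (4.56%). There, the intron with the smallest p was intron 5 of the kinase gene IKBKE, at 92.6% ± 3.85 and 99.1% ± 1.22 (adjusted p = 0.592, limma). It was followed by an intron of IFIH1, the sensor MDA5, at 0.0501% ± 0.0114 and 3.09% ± 2.39 for siRNA #1 and #2 (SD, n = 6 each, adjusted p = 0.704, limma).

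For cell cycle genes and inhibitors of apoptosis, 19 of 616 introns (3.08%) had an unadjusted p under 0.05, the smallest in intron 6 of E2F1, at 68.0% ± 4.67 and 76.3% ± 2.14 (SD, n = 6 each, adjusted p = 0.681, limma). A single intron of the 8 groups was called within a MYCN state and was singled out for that, and against 0.0433% and 0.0341% called over all introns this count is no result about the groups. It leaves out exon 7 of 9 of BIRC3, the apoptosis inhibitor cIAP2 (chr11:102331242-102336759), an exon of 255 bases, all coding. In MYCN- cells its PSI was 0.0830%, 0.0679% and 0.0805% with siRNA #1 and 4.42%, 4.09% and 5.59% with siRNA #2 (adjusted p = 0.000424, limma), while siControl had at most 0.0854%. In MYCN+ cells the means were 0.238% and 0.290%, and the siRNA difference depended on MYCN (-2.40 ± 0.218 log2 odds, SE, adjusted p = 0.00609). The mean PSI of this intron over the 12 libraries was 1.33%, and it passed the 1% filter only through siRNA #2 in MYCN- cells. Both contrasts were therefore partly set by the filter.

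At BIRC5 (survivin) and CDK10, genes examined in the study for skipping of exon 3 and for an intron retained, no difference between the siRNAs was resolved. The BIRC5 intron with the smallest p (chr17:78216035-78216663) had 2.93% ± 0.695 with siRNA #1 and 3.24% ± 0.758 with siRNA #2 (SD, n = 6 each), a difference of 0.31 points with a 95% interval of -0.75 to 1.37 (adjusted p = 1, limma). The BIRC5 intron that skips exon 3 up to the last exon (chr17:78214790-78223464), taken up after its values were seen, had mean PSI of 6.76% and 5.11% with siRNA #1, 5.01% and 5.31% with siRNA #2 and 3.78% and 4.05% with siControl in MYCN+ and MYCN- cells (adjusted p between the siRNAs = 1, limma). PSI of introns cannot show intron retention, so that of CDK10 was not measured. In CDK10 an unannotated donor 17 bases inside exon 10 (chr16:89694772-89694930) had 1.95% ± 0.671 and 1.03% ± 0.885 (SD, n = 6 each), a difference of -0.92 points with a 95% interval of -2.17 to 0.33 (adjusted p = 0.987, limma).

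DIXDC1 and MYL12-AS1 were taken up because earlier results of these data had shown them to differ between the siRNAs, so their values are given as a description. In DIXDC1, a regulator of Wnt signalling, an intron with an unannotated acceptor (chr11:111927388-111929841, 9 different values) had 27.5%, 17.9% and 37.4% with siRNA #1 and 1.37%, 1.37% and 0.626% with siRNA #2 in MYCN- cells. The siControl libraries had 67.5%, 49.4% and 42.3% in MYCN- cells, above both siRNAs. In MYCN+ cells both siRNAs were at or below 0.726% while siControl had 52.7%, 0.726% and 24.9%. In the antisense transcript MYL12-AS1 an intron with an unannotated donor (chr18:3255839-3277768, minus strand, 11 different values) had 42.3% ± 15.6 and 2.55% ± 4.47 (SD, n = 6 each) without overlap. The siControl libraries of this intron split by MYCN state, from 0.683% to 1.14% in MYCN+ and from 55.7% to 69.3% in MYCN- cells, and 5 of the 6 libraries of siRNA #2 lay at or below 0.775%.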

How the data were processed

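RNA-seq of 18 SHEP.tet21n libraries was summarised by the authors as deposited PSI values, which are fractions from 0 to 1 per intron and library and are printed here as percentages. Per the submitters' processing notes, reads were handled with STAR 2.5.0a and SAMtools 1.3.1 on hg38, and introns were clustered with leafcutter. Clusters were formed over all libraries, so a library with few reads at a cluster gives coarse values. Read counts behind the values are not given. A second deposited table holds the authors' own comparisons of 15 pairs of groups (a false discovery rate per cluster and a PSI difference per intron) and was not used. All 18 columns matched 1 library each, with 0 unmatched.

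Groups were taken from the labels. Introns with a mean PSI between 0.01 and 0.99 over the 12 knockdown libraries were tested on log2((PSI + 0.01)/(1 - PSI + 0.01)) with limma 3.58.1 in R 4.3.3, with the MYCN state as a term, with Benjamini-Hochberg adjustment over every tested intron. A difference in points is that of mean PSI, and its interval comes from limma on PSI. Differences within a MYCN state and their dependence on it were fitted on 4 groups, and comparisons with siControl on all 18 libraries. Measures per library were compared with two-sided exact permutation tests that exchanged siRNA labels within MYCN state (400 arrangements, smallest p 0.005). With 3 libraries against 3 the smallest p would be 0.1. Introns and exons were named from GENCODE v44, which need not be the authors' release, and exons are numbered along the gene's canonical transcript. Scripts were tested on simulated data.

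Named introns had an adjusted p under 0.05, no overlap of 6 libraries against 6 and 12 different values, 1 per gene, filled to 12 with those of smallest p; further named were 3 per MYCN state and for the dependence on MYCN, BIRC5 and CDK10 from the study, DIXDC1 and MYL12-AS1 from earlier results of these data, and up to 4 members per gene list. Of the called introns, 1 is not reported here. Members and lists were chosen with earlier results of these data known. The siRNA comparisons with siControl per library, the comparisons across MYCN states and the test of single exon sets were chosen after seeing the data. Alternatives covered the offset, scale, filters, samples, covariates and replicates.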

Additional observations from a re-analysis of the deposited data

Results flagged for a closer look

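Among 36 groups of 6 libraries examined, 4 held a library far from the others, where chance gives about 1 in 20. MYCN+ siRNA #1 replicate 3 had an exon skipping share of 42.5%, the highest with siRNA #1. The SLC12A4 intron was lowest among siRNA #2 libraries in MYCN- replicate 2, at 1.37%. The ZNF773 intron was highest among siRNA #2 libraries in MYCN+ replicate 2, at 0.0814%. The intron of ENSG00000291055 was highest among siRNA #1 libraries in MYCN- replicate 2, at 1.00%, where the other 5 lay at or below 0.0387%.

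In 6 named introns the siRNA difference depended on the MYCN state, as tested by the limma interaction over all introns (siRNA difference in MYCN+ minus MYCN- cells, in log2 odds). It was -5.91 in SNHG32 (adjusted p = 0.00155), -5.21 in SPIRE2 (adjusted p = 0.0417) and -2.40 in BIRC3 (adjusted p = 0.00609). It was 5.51 in SEPTIN7-DT (adjusted p = 0.0105), 7.93 in ENSG00000237529 (adjusted p = 0.00474) and 4.29 in DIXDC1 (adjusted p = 0.0168). In ENSG00000237529 the 3 libraries of siRNA #2 in MYCN+ cells all had 14.2%, and in DIXDC1 values were also repeated. DIXDC1 was taken up for a difference seen earlier in these data, so its p is no independent support.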

How the results depend on the processing

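Counts of called introns are given in the order both MYCN states, MYCN expressed, MYCN repressed and dependence on MYCN (9, 66, 52 and 64 as reported). They were 3, 21, 32 and 25 with an offset of 0.05, 0, 3, 14 and 2 on the PSI scale, 4, 23, 18 and 16 with a mean PSI of 0.05 to 0.95, and 2, 21, 18 and 28 in the fit of all 18 libraries. For the last 3 of these comparisons they were 117, 81 and 116 with an offset of 0.001 and 114, 94 and 102 without a filter. Leaving out 1 library at a time gave 13 to 29, 82 to 148, 74 to 151 and 109 to 143. Fits of only the 6 libraries compared gave 268 and 341 within the MYCN states. An adjusted p under 0.01 left 31 with MYCN expressed and 35 for the dependence, a trended robust fit 43 and 42, and a minimum difference of 0.05 left 4 over both states. Requiring 12 different values gave 41 for the dependence, and the test of annotated exon sets, chosen after seeing the data, gave 1. Against siControl, siRNA #1 had 4 calls with an offset of 0.001, 2 without a filter and 7 with 12 different values (0 as reported), and siRNA #2 had 0 with a mean PSI of 0.05 to 0.95 (limma, 6018 at an unadjusted p under 0.05), 1 with a minimum difference of 0.05 and 1 with an adjusted p under 0.01 (3 as reported). The cause of these changes was not tested.

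Libraries of the 2 siRNAs with 1 replicate number within a MYCN state correlated in their deviations at 0.000594 to 0.0467 (mean 0.0243). Those with other numbers correlated at -0.0398 to 0.0078 (mean -0.0121). What libraries of 1 number share beyond it is not given by the labels and was not tested. With a replicate block the counts were 7, 34, 34 and 31, with a replicate block within treatment 2, 4, 21 and 4, and then 1 for siRNA #2 against siControl. With the replicate block, pairing the exchange of labels, the skipping share was lower with siRNA #2 in 6 of 6 pairs (exact p = 0.03125, the smallest possible, adjusted p = 0.125).

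Leaving out 1 library moved the skipping difference between -0.797 and 0.0322 points, reversed without MYCN+ siRNA #1 replicate 3. The siRNA #2 library of the same number and state was kept there. For unannotated introns the range was -0.0213 to 0.103, reversed without MYCN+ siRNA #2 replicate 3 (-0.0213) and MYCN- siRNA #1 replicate 2 (-0.00441). For the departure from control it was -0.301 to -0.0941. For repeated values it was -0.474 to 0.0336, reversed without MYCN+ siRNA #1 replicate 2 (0.0336) or MYCN- siRNA #2 replicate 2 (0.0307) and with MYCN repressed alone (0.0739).

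The 5 called introns with different values described here kept their direction under every alternative run, and each lost its call on the PSI scale, with an offset of 0.05 and with the block within treatment. Depth is unknown, which limits what a PSI near 0 can show.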
